A study of Homo sapiens with 6 samples.

Results

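Chromatin that was open in the KMT2A-AFF1 leukemia lines RS4;11 and SEM, but not in the line labelled RCH, was compared after knockdown of NSD2, together with chromatin that was open in RCH alone. All lines are B-cell acute lymphoblastic leukemia lines grown from bone marrow, and RCH is read here as the RCH-ACV named in the growth protocol. The comparison used the 3 samples that carry sh2, the short hairpin RNA against NSD2, out of 6 samples in the series. The other 3 samples carry NT, a non-targeted control hairpin, in the same lines. The assay was ATAC-seq, which uses the Tn5 transposase to tag DNA that is not covered by nucleosomes, and each sample came with 2 lists of peaks. The groups were therefore RS4;11 sh2 and SEM sh2, with 4 lists, against RCH sh2, with 2 lists. The 6 lists were merged on chromosomes 1 to 22 into 96579 regions, in which a list counted as open when one of its peaks overlapped the region by at least 1 bp. A region was called fusion-open when all 4 lists of RS4;11 and SEM and no RCH list had a peak, which held for 8469 regions (8.77%). It was called RCH-open when both RCH lists and none of the other 4 had a peak, which held for 2453 regions (2.54%). Both classes were chosen from these peak lists, so their sizes are a description. Each group of the comparison is made of 1 sample per line, and the labels do not say whether the lists of a sample came from separate cultures. With 2 lines on one side and 1 on the other no test over lines was possible, and the fusion cannot be told apart from other differences between the lines. Intervals given below are exact binomial 95% intervals over regions and cover counting error only.

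NSD2 is a histone methyltransferase that places dimethyl marks on lysine 36 of histone H3, a modification spread over active chromatin. KMT2A-AFF1 joins the DNA-binding part of the methyltransferase KMT2A to AFF1, a scaffold of the elongation machinery, and holds stem-cell genes such as HOXA9 and MEIS1 in an active state. Leukemias with this fusion form a subtype of their own, with a characteristic pattern of active regulatory elements. Genes were not assigned to regions, and all coordinates are in the build hg19.

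The lists differed in length between the groups. On the autosomes RS4;11 sh2 had 59502 and 61253 peaks and SEM sh2 had 62120 and 60148, while RCH sh2 had 43043 and 40506. The RCH sh2 lists were thus the shortest of all 12 lists of the series, and the next had 52301 peaks (SEM NT). The median fold enrichment, the ratio of a peak's signal to the background of its own library, was 7.10 and 7.06 for RS4;11 sh2 and 6.41 and 6.51 for SEM sh2. It was 5.42 and 5.32 for RCH sh2. The number of sequenced reads is unknown. Folds are the authors' values and are not normalized between lists, so each is given as a value of its own list and shows no difference in level between lists.

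Many regions lay close to the rule of the fusion-open class. A further 4677 regions had a peak in all 4 lists of RS4;11 and SEM and in 1 RCH list, and 5463 had a peak in 3 of the 4 and in no RCH list. A peak's percentile is its rank by fold within its own list. The median percentile in the fusion lines was 48.4 at fusion-open regions, 54.4 where 1 RCH list also had a peak, 31.2 where 1 of the 4 lists lacked one, and 75.7 at the 23416 regions (24.2%) open in all 6 lists. Fusion-open regions therefore held peaks of middling rank. RCH-open regions held peaks of low rank within the RCH lists, with a median percentile of 34.6 against 69.4 at regions open in all 6 lists. The lists differ in length, so percentiles of RCH and of the fusion lines do not compare peak strength between lines. Just outside the RCH-open class, 7055 regions had a peak in 1 RCH list alone, at a median percentile of 15.2. A further 970 had a peak in both RCH lists and in 1 of the other 4. Fusion-open regions were 436 bp wide at the median, RCH-open regions 352 bp, and regions open in all 6 lists 715 bp.

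The larger of the classes changed with list length. When each list was cut to its 40506 peaks of highest fold, 3724 of 71478 regions (5.21%) were fusion-open and 4320 (6.04%) were RCH-open. The RCH-open share of both classes went from 22.5% (21.7 to 23.3) as deposited to 53.7% (52.6 to 54.8). The cut took no peak from RCH sh2 list 2 and few from list 1, which had 43043, but many from RS4;11 sh2 and SEM sh2. The shares that follow therefore depend on where the cut fell and do not compare how firm the classes are. Of the fusion-open regions in lists of equal length, 3675 (98.7%) had no deposited RCH sh2 peak. Of the RCH-open regions, 2261 (52.3%) had no deposited peak of RS4;11 sh2 or SEM sh2, and 488 had a weaker peak in all 4 of those lists. Leaving out a list drops a requirement of the rule, so counts rise by construction. RCH-open regions numbered 5827 without RCH sh2 list 1 and 6272 without RCH sh2 list 2, where 1 RCH list had to be open instead of 2. The fusion-open count was 9507 to 11389 with any 1 of the 6 lists left out.

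The same rule was applied to every pair of lines, to set the pair that shares a fusion beside the others. As deposited, 8469 regions were open in RS4;11 and SEM and not in RCH. Regions open in RS4;11 and RCH and not in SEM numbered 1089 (1.13%), and those open in SEM and RCH and not in RS4;11 numbered 1053 (1.09%). With lists of equal length these counts were 3724, 1544 (2.16%) and 1149 (1.61%), so that the fusion pair remained the largest. Regions open in both sh2 lists of 1 line alone numbered 7094 (7.35%) for SEM and 5582 (5.78%) for RS4;11 as deposited, beside 2453 for RCH. With lists of equal length they numbered 4332 (6.06%), 3343 (4.68%) and 4320, so RCH did not stand apart from SEM. In the NT lists, which did not choose these regions, the pairs were less unequal. As deposited, 4032 of 110435 regions (3.65%) were open in RS4;11 and SEM alone, 3791 (3.43%) in RS4;11 and RCH alone and 967 (0.876%) in SEM and RCH alone. With the NT lists cut to 40506 peaks as well, the counts were 2121 (3.10%), 2027 (2.96%) and 1566 (2.29%) of 68416 regions. At that common length the fusion pair thus exceeded the next pair by 94 regions in NT and by 2180 in sh2. RCH-open regions numbered 3591 (3.25%) in the NT lists as deposited, beside 10959 (9.92%) in RS4;11 alone and 2828 (2.56%) in SEM alone. At the common length they numbered 3509 (5.13%), beside 3524 (5.15%) in RS4;11 alone and 3484 (5.09%) in SEM alone. With the NT lists cut only to the shortest of their own, at 52301 peaks, 2691 of 90179 regions (2.98%) were fusion-open and 4439 (4.92%) RCH-open.

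**Figure D1:**
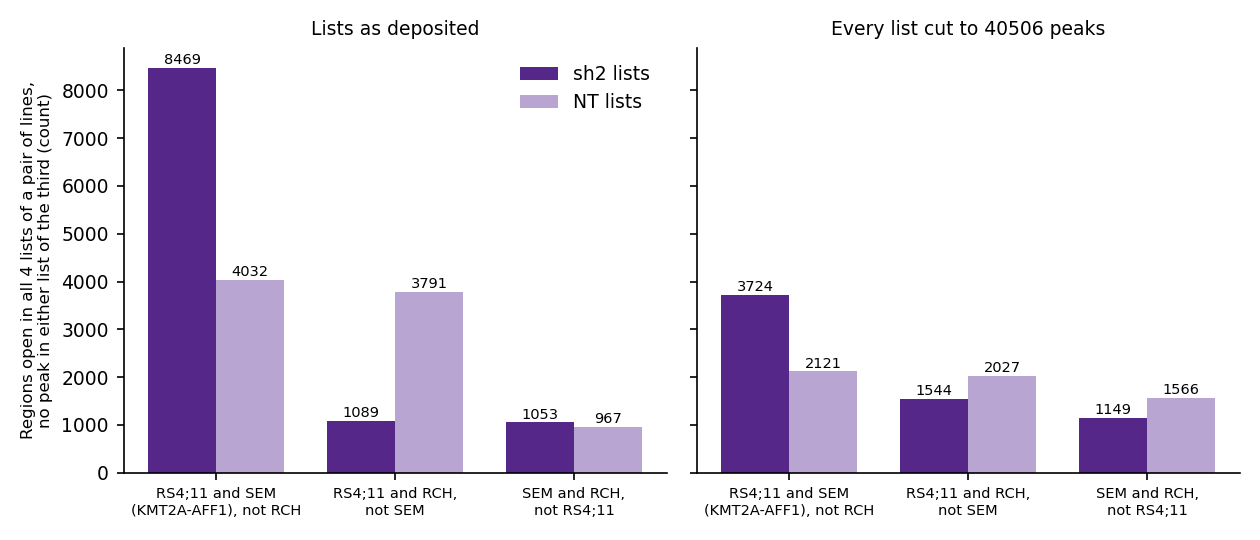
Regions open in all 4 lists of a pair of lines and in neither list of the third line, as counts (bars), for sh2 and NT lists. The fusion pair stands out in the sh2 lists under both settings (8469 and 3724 regions), while in the NT lists it is close to the pair RS4;11 and RCH.

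The members of both classes were then looked up in the NT lists. At fusion-open regions, RS4;11 NT had a peak at 97.0% and 94.0% of the 8469 regions in its lists 1 and 2, against 66.5% and 61.5% of all regions. SEM NT had a peak at 75% and 73.4%, against 50.4% and 49.8% of all regions. RCH NT had a peak at 35.7% and 49.5%, against 46.4% and 48.6% of all regions. Most fusion-open regions thus had a peak in each single NT list of the fusion lines, more often in RS4;11, which has the longest NT lists, than in SEM. With all 12 lists at 40506 peaks the shares of the 3724 fusion-open regions were 89.2% and 88.4% in RS4;11 NT and 77% in both SEM NT lists. Those of all regions were 52.1% and 52.3% in RS4;11 NT and 52.1% and 52.4% in SEM NT. In RCH the fusion-open regions were closed in all sh2 lists by the rule. As deposited they were yet open in RCH NT about as often as any region in list 2, and less often in list 1. At 40506 peaks RCH NT had a peak at 32.1% and 46.8% of them, against 50% and 51.1% of all regions. As deposited, RCH-open regions were split more clearly by line. RCH NT had a peak at 73.7% and 69.1% of the 2453 regions, RS4;11 NT at 15.1% and 10.9%, and SEM NT at 7.58% and 8.19%. At 40506 peaks RCH NT had one at 55.6% and 49.7% of the 4320 RCH-open regions, against 50% and 51.1% of all regions. RS4;11 NT had one at 5.72% and 6.76% of them and SEM NT at 12.3% and 13.8%, against 52.1% to 52.4% of all regions.

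**Figure D2:**
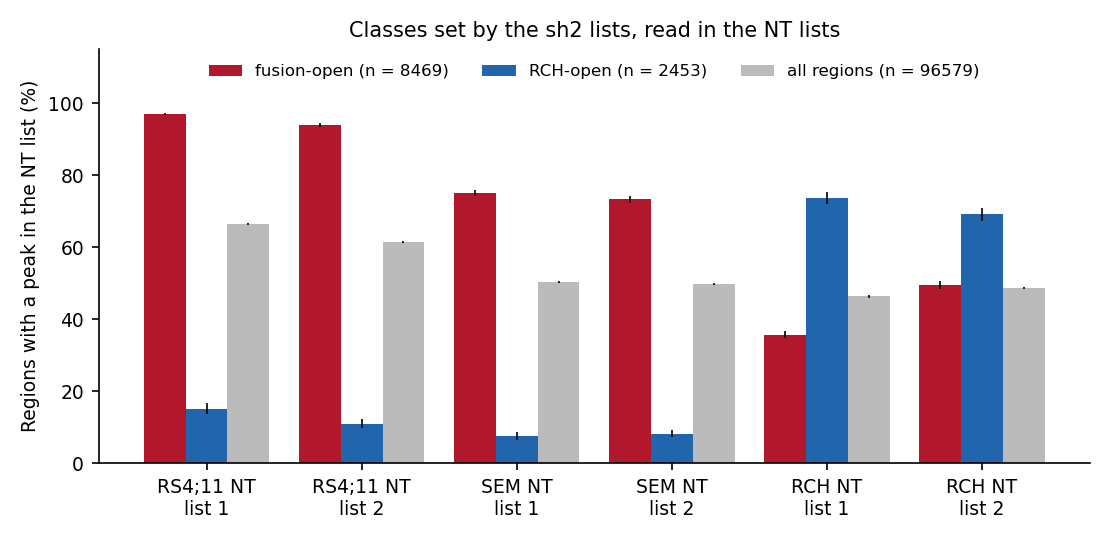
Share of fusion-open, RCH-open and all regions (percent, bars, with exact 95% binomial intervals) that had a peak in each of the 6 NT lists, with lists as deposited. Fusion-open regions reach 97.0% in RS4;11 NT list 1 and still 49.5% in RCH NT list 2, whereas RCH-open regions stay at or under 15.1% in the lists of RS4;11 and SEM.

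Few fusion-open regions met the same rule with NT. It was met by 1869 of 8469 (22.1%, 21.2 to 23), against 3976 of all 96579 regions (4.12%). A further 3242 (38.3%) had a peak in all 4 NT lists of RS4;11 and SEM and also in at least 1 RCH NT list, against 32.3% of all regions. Another 1761 (20.8%) had no RCH NT peak but lacked one in a fusion line, against 41.2% of all regions, and 1597 (18.9%) failed on both sides, against 22.4%. RCH had a peak in both NT lists at 2377 fusion-open regions (28.1%) and in neither at 3630 (42.9%), where all regions had 40.3% and 45.3%. Of all fusion-open regions, 1716 (20.3%) were open in all 6 NT lists, against 28.2% of all regions. Only 2 belonged to the opposite class with NT, against 2.46% of all regions. A further 29 (0.342%) had no NT peak in any line, against 17.6% of all regions. With all 12 lists of equal length, 899 of 3724 fusion-open regions (24.1%) met the rule with NT, against 2.82% of all regions. Both RCH NT lists had a peak at 943 (25.3%), against 43.2% of all regions.

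Of the RCH-open regions, 1155 of 2453 (47.1%, 45.1 to 49.1) met the same rule with NT, against 2377 of all regions (2.46%). A further 682 (27.8%) had no NT peak in RS4;11 or SEM but lacked one in an RCH NT list, and 383 (15.6%) were open in both RCH NT lists and in at least 1 list of the other lines. The shares of all regions in these states were not computed. Peaks in all 4 NT lists of RS4;11 and SEM were found at 31 RCH-open regions (1.26%), against 36.4% of all regions. At least 1 NT list of RS4;11 or SEM had a peak at 25.1% of RCH-open regions, against 77.8% of all regions. As deposited, at least 1 RCH NT list had a peak at 57.1% of fusion-open regions, against 54.7% of all regions. The order turned with equal lists, where neither RCH NT list had a peak at 46.3% of fusion-open and 42% of all regions. With equal lists 1319 of 4320 RCH-open regions (30.5%) met the rule with NT, against 3.72% of all regions. No NT peak in any line was found at 359 of 2453 regions (14.6%) as deposited, against 17.6% of all regions. With equal lists there was none at 1242 (28.8%), against 20.7% of all regions. The fusion lines had no NT peak at 3260 (75.5%), for which the share of all regions was not computed. Read from the NT side, 1845 of 4032 fusion-open regions (45.8%) and 1151 of 3591 RCH-open regions (32.1%) met the rule with sh2 as deposited, against 7.59% and 1.91% of all regions. With all 12 lists at 40506 peaks these were 893 of 2121 (42.1%) and 1318 of 3509 (37.6%), against 5.35% and 4.40% of all regions. With the NT lists at 52301 peaks and the sh2 lists at 40506 the order of the classes turned, with 821 of 2691 (30.5%) and 1466 of 4439 (33%). The shares of all regions were 4.10% and 4.16% there.

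Members were divided into 5 equal bands by their mean percentile in the sh2 lists that had to be open. Among fusion-open regions, the share with a peak in all 4 NT lists of RS4;11 and SEM went from 43.9% in the lowest band to 88.7% in the highest. The share with a peak in at least 1 RCH NT list went up with it, from 42.5% to 72.5%. The share that met the whole rule with NT lay between 20.2% and 23.7% as deposited. With equal lists it was 13% in the lowest band, then 18.9%, 25.9%, 32.1% and 30.7%, so it moved with rank there. The highest band was the one most often open in RCH under the control hairpin, under both settings. Among RCH-open regions, the share open in both RCH NT lists went from 40.7% to 88.8%, the share with any NT peak of the fusion lines lay between 18.5% and 30.0%, and the share that met the whole rule went from 32.8% to 66.8%, and from 11% to 58.2% with equal lists. With equal lists the shares with a peak on the closed side went from 45.0% to 66.2% for fusion-open regions and from 19.2% to 26.4% for RCH-open regions, with 29.9% in the fourth band. At fusion-open regions where RCH NT had a peak, the median percentile of that peak was 36.8 in list 1 and 37.7 in list 2, against 58.3 and 56.8 over all regions.

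**Figure D3:**
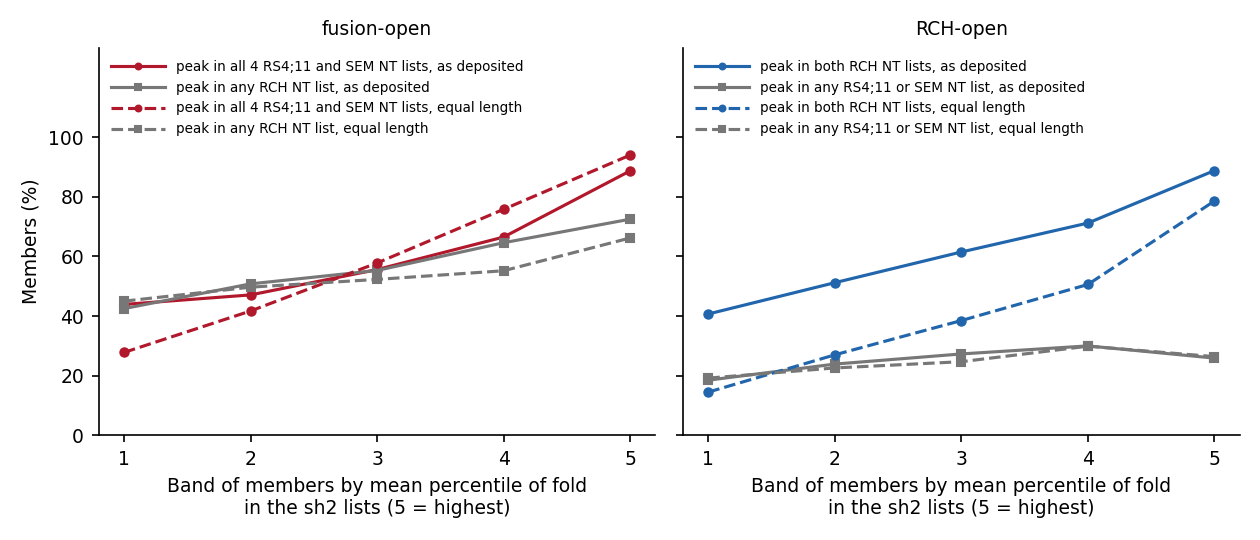
Members of each class by band of their mean percentile of fold in the sh2 lists (x axis) and the percentage with a peak in the NT lists (y axis) of the open side (circles) and of the closed side (squares), as deposited (solid) and with lists of equal length (dashed). For fusion-open regions both lines climb, to 88.7% and 72.5% as deposited, while for RCH-open regions the closed side stays at or under 30.0%.

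Position on the genome was not used by the rule, and the balance of the classes differed between chromosomes. As deposited, RCH-open regions made up 76.2% of both classes on chromosome 19 (70.2 to 81.5), with 176 RCH-open and 55 fusion-open regions. They made up 53.0% on chromosome 17 and 52.3% on chromosome 22, and on these 3 chromosomes alone they were the larger class. The lowest shares were 9.69% on chromosome 6 (78 and 727 regions), 9.73% on chromosome 4 (77 and 714) and 10.1% on chromosome 18 (38 and 338). Chromosome 19 is gene-dense, and chromosomes 4 and 18 are gene-poor. Among all regions of chromosome 19, 1.93% were fusion-open and 6.16% RCH-open, against 11.7% and 1.26% on chromosome 4.

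With lists of equal length the order was alike and its span was wide. Chromosome 19 had 326 RCH-open and 11 fusion-open regions, a share of 96.7% (94.2 to 98.4). Chromosome 17 had 85.8%, chromosome 22 had 85.4% and chromosome 16 had 78.0%, against 30.0% on chromosome 4, 31.5% on chromosome 18 and 33.4% on chromosome 6. RCH-open was then the larger class on 14 of 22 chromosomes. Over the 22 chromosomes the rank correlation (Spearman) of the RCH-open share with the share of regions open in all 6 lists was 0.721 as deposited and 0.614 with equal lists. The same relation in the NT lists was 0.050 as deposited and 0.0789 at 40506 peaks, the length of the equal sh2 lists. The chromosomes share their libraries, and base composition and depth were not available, so these values are descriptions. The share was higher after sh2 than with NT on chromosomes 17, 19 and 22 as deposited. With all 12 lists at 40506 peaks it was higher on 15, 16, 17, 19, 20, 21 and 22. On the other chromosomes it was lower. Chromosome 17 as deposited had 53% after sh2, within the interval of its 52% with NT (45.6 to 58.3). At 40506 peaks chromosome 13 had 44.6% after sh2 and 70.6% with NT, and chromosome 4 had 30.0% and 53.1%. Over all chromosomes the share was then 53.7% after sh2 and 62.3% with NT. On chromosome 22 it was 52.3% after sh2 and 31.1% with NT as deposited, and 85.4% and 52.4% at that common length. Chromosome 16 had 78.0% and 61.0% at the common length. On chromosomes 15, 20 and 21 the sh2 share was higher by 4.3 points or less, within the interval of the NT share. Chromosome 19 had 63% with NT as deposited and 90.9% (83.4 to 95.8) at the common length, beside 96.7% after sh2. The highest share with NT as deposited was 66.2% on chromosome 7, which had 30.9% after sh2.

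**Figure D4:**
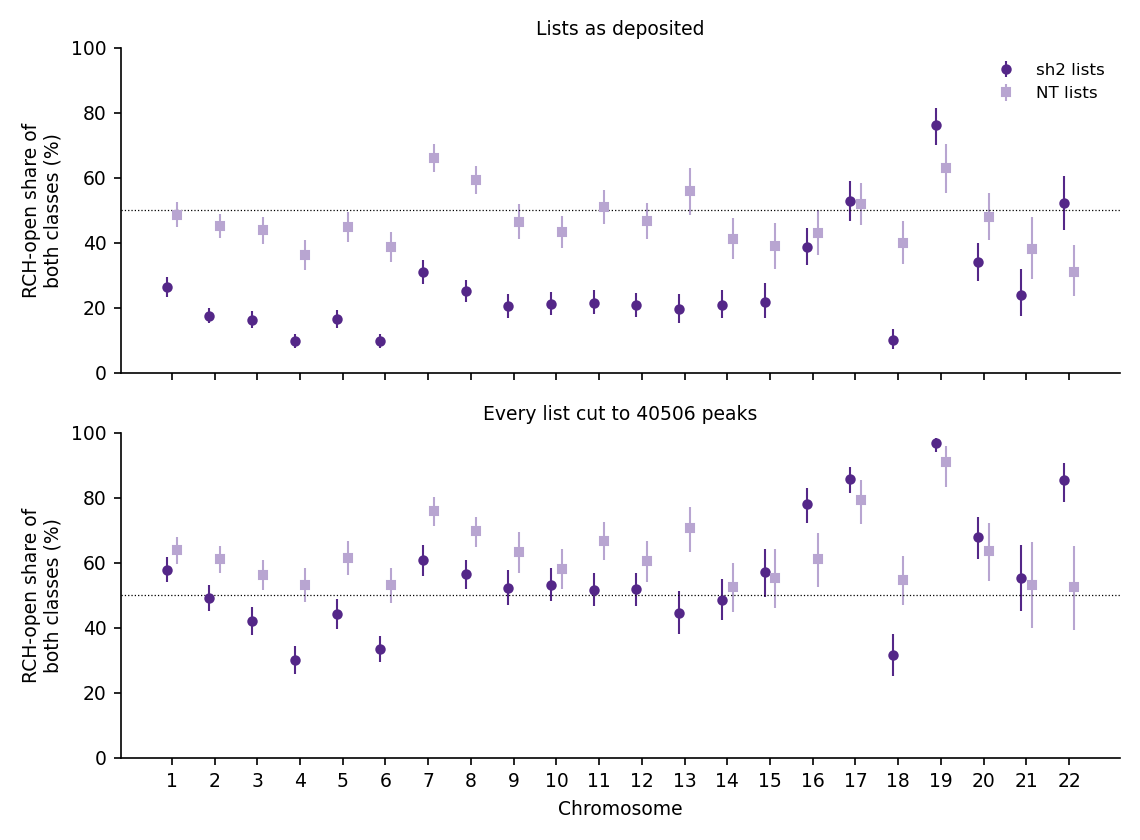
RCH-open share of both classes (percent, with exact 95% binomial intervals) on each of the 22 autosomes, for sh2 and NT lists, as deposited (top) and with all 12 lists cut to 40506 peaks (bottom). The dotted line marks equal class sizes. In the sh2 lists chromosome 19 is highest under both settings (76.2% and 96.7%), and chromosomes 4, 6 and 18 are lowest.

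Members of both classes lay at like distances from constitutively open chromatin in the lists as deposited. To the closest region shared by all 6 lists, the median distance was 30.7 kb for fusion-open and 31.7 kb for RCH-open regions, and 20.9% and 21.0% lay beyond 100 kb. With equal lists the medians were 46.1 kb and 30.2 kb, 12.2% and 25.6% lay within 10 kb, and fusion-open regions were the farther class on 19 of 22 chromosomes. As deposited they were farther on 7. In the NT lists fusion-open regions were the nearer class, with 22.9 kb against 36.3 kb as deposited and 30.5 kb against 38.5 kb at 52301 peaks, and farther on 1 chromosome and on 0. At 40506 peaks the NT medians were 40.8 kb and 45.9 kb, with fusion-open regions farther on 6 chromosomes. The order of the equal sh2 lists was thus not found with NT at any of these lengths.

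Fusion-open regions were spread over 2322 of the 2722 bins of 1 Mb that held a region, with a median of 3 per bin, and RCH-open regions over 1188. At least 10 fusion-open regions lay in 65 bins, and at least 10 RCH-open regions in 8. The richest bin of the fusion-open class, at 90 to 91 Mb of chromosome 6, held 19 fusion-open and 0 RCH-open regions among 54, and 9 open in all 6 lists. With equal lists it held 11 fusion-open regions among 40. The bin at 158 to 159 Mb of chromosome 2 held 16 fusion-open regions, and those at 166 to 167 Mb of chromosome 2 and at 95 to 96 Mb of chromosome 5 held 15 each. Of these, 4, 5, 4 and 2 regions in this order also met the rule with NT. The 3 richest bins of the RCH-open class lay near chromosome ends. On chromosome 7, the bin at 1 to 2 Mb held 14 RCH-open regions and 1 fusion-open region, and that at 0 to 1 Mb held 13 and 2. The bin at 133 to 134 Mb of chromosome 10 held 11 RCH-open and 0 fusion-open regions among 33, and 9 of the 11 met the rule with NT. In the chromosome 7 bins 6 of 14 and 7 of 13 did.

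The 5 fusion-open regions with the highest mean percentile in the sh2 lists lay on chromosomes 9, 4, 18, 6 and 3, and each had an RCH peak with NT. The first, at chr9:45356528-45357437, had folds of 21.2 and 21.6 in RS4;11 after sh2, and of 22.6 and 19.9 in SEM. With NT its folds were 22.3 and 22.6 in RS4;11, 16.5 and 16.6 in SEM, and 5.34 and 5.45 in RCH. This part of chromosome 9 lies near the centromere, where many stretches have near-identical copies, so the placement of reads there is uncertain. The second, at chr4:27156267-27156852, had 20.5 and 20.4 in RS4;11 after sh2, 15.5 and 14.8 in SEM after sh2, and a peak of 6.40 in RCH NT list 2 only. The third, at chr18:22110604-22111020, had 18.96 and 18.6 in RS4;11 after sh2, 15.9 and 15.8 in SEM after sh2, and 6.13 in RCH NT list 2 only.

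The fourth, at chr6:123031183-123031791, had 20.3 and 22.2 in RS4;11 after sh2, and 16.8 and 13.5 in SEM. RCH NT had folds of 6.33 and 9.44 there, at percentiles of 53.4 and 80.2 in their lists. The fifth, at chr3:110085923-110086719, had 22.9 and 22.7 in RS4;11 after sh2, 14.5 and 14.3 in SEM after sh2, and 6.37 in RCH NT list 2 only. All 5 were fusion-open with lists of equal length too.

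The 5 highest-ranked RCH-open regions had no NT peak in RS4;11 or SEM. A pair of them lay within 30 kb of each other near the end of chromosome 12. The first, at chr12:133463908-133464682, had folds of 14.8 and 12.7 in RCH sh2 and 14.4 and 14.8 in RCH NT. The second, at chr12:133484906-133485595, had 12.8 and 14.2 in RCH sh2 and 15.3 and 13.3 in RCH NT. The third, at chr17:14212474-14213009, had 12.7 in both RCH sh2 lists and 15.3 and 11.2 in RCH NT. The fourth, at chr5:175223829-175224303, had 12.2 and 12.5 in RCH sh2 and 12.03 and 9.39 in RCH NT, and the fifth, at chr13:20138889-20139484, had 13.5 and 11.4 in RCH sh2 and 18.7 and 14.5 in RCH NT. All 5 were RCH-open with equal lists too, and all met the rule with NT.

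**Figure D5:**
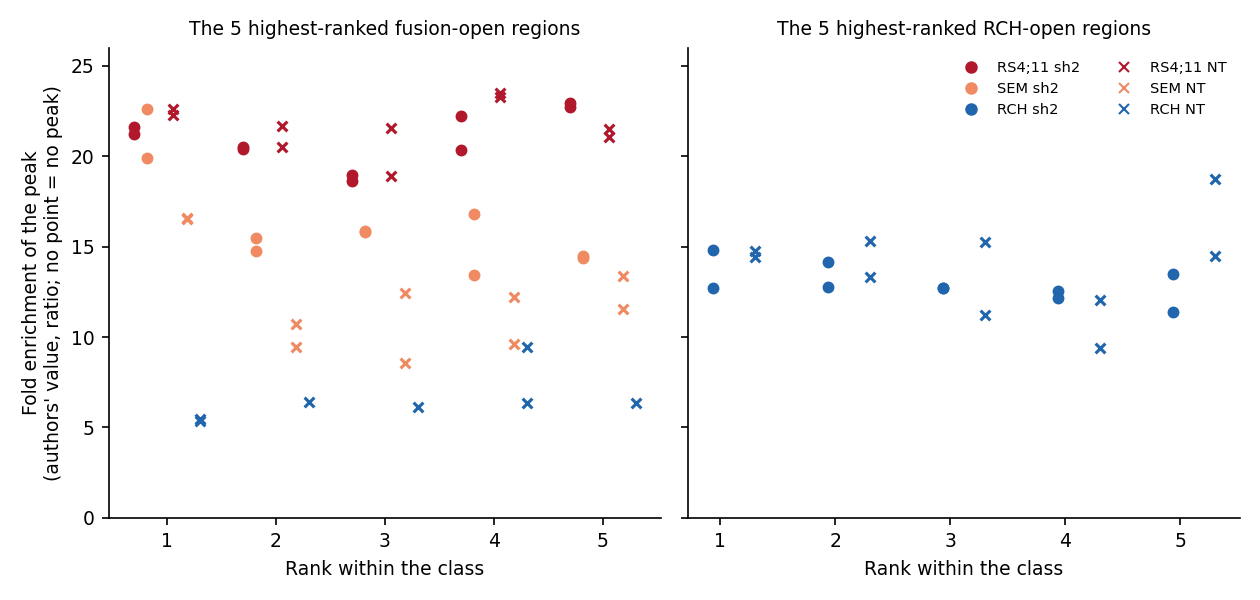
Fold enrichment (the authors' ratio, linear axis) in every list with a peak at the 5 highest-ranked fusion-open (left) and RCH-open (right) regions, with circles for sh2 and crosses for NT. Folds are not normalized between lists. RCH NT crosses between 5.34 and 9.44 appear at all 5 fusion-open regions, and no mark of RS4;11 or SEM appears at the RCH-open regions.

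Other members were closed in RCH under both hairpins. The highest-ranked of the 1869 regions that met the fusion-open rule with sh2 and with NT, picked after values had been seen, lay at chr21:27804711-27805130. RS4;11 had folds of 16.8 and 17.6 with sh2 and of 18.7 and 16.7 with NT. SEM had 16.8 and 15.6 with sh2 and 10.7 and 11.5 with NT. The next was at chr1:55352430-55353401, with 17.4 and 17.3 in RS4;11 after sh2 and 15.7 and 16.7 with NT. In SEM it had 15.2 and 15.1 after sh2 and 11.9 and 13.3 with NT. The next after that was at chr1:101742350-101742761, where SEM had 16.4 and 13.6 with sh2 and 8.63 and 9.88 with NT. RS4;11 stood at 15.9 and 17.1 with sh2 and at 18.6 and 16.4 with NT. In these 3 regions RCH had no peak in any of its 4 lists. The third-ranked fusion-open region with a peak in both RCH NT lists, after those on chromosomes 9 and 6 above, lay at chr9:31095555-31096258. RCH NT had folds of 5.67 and 4.97 there. Those of RS4;11 sh2 were 20.7 and 21.4, and those of SEM sh2 were 12.8 and 15.7.

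The opposite turn was seen at the 31 RCH-open regions with a peak in all 4 NT lists of RS4;11 and SEM, of which 25 were open in all 6 NT lists. The highest-ranked lay at chr5:129298191-129298544, with folds of 9.24 and 7.82 in RCH sh2 and 11.6 and 10.2 in RCH NT. RS4;11 NT had 7.05 and 8.12 there and SEM NT 7.23 and 7.58, and no sh2 list of these lines had a peak. The next was at chr13:61412617-61413132, with 8.37 and 8.401 in RCH sh2, 10.1 and 8.58 in RS4;11 NT and 5.07 and 3.96 in SEM NT. The last of the 3 was at chr7:118688184-118688711, with 8.22 and 7.97 in RCH sh2, 4.13 and 5.44 in RS4;11 NT and 5.85 and 5.75 in SEM NT. RCH NT had 14.5 and 11.5 at the second and 14.2 and 13.5 at the third.

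Long stretches without any peak of one side were looked for, since a line that lacks peaks over a whole stretch fills a class there. Over all 12 lists, the longest run of regions without an RCH peak held 21 regions, on chromosome 10 from 82895632 to 83426049 (530 kb), and 2 of them were fusion-open. The next held 18 regions each, on chromosome 14 from 106328763 to 106501303 with 1 fusion-open region, and on chromosome 13 from 28755379 to 28842062 with 2. These were the longest of 28243 runs without an RCH peak, with a median of 1 region per run. They held 5 of the 8469 fusion-open regions, and members in the other runs were not counted. The longest run without a peak of RS4;11 or SEM held 23 regions, on chromosome 10 from 132889370 to 133236582 (347 kb), and 11 of them were RCH-open. The next lay on chromosome 1 from 2525899 to 2886406, with 14 regions of which 7 were RCH-open, and on chromosome 5 from 2739338 to 3134578, with 12 regions of which 5 were. The chromosome 10 run overlaps the bin named above, and copy number was not measured.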

How the data were processed

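ATAC-seq peak lists of 6 samples (3 lines, each with NT or sh2, 2 lists per sample) were used. The authors aligned reads to hg19 with Bowtie2 and called peaks with MACS2, per the submitters' processing notes. Their versions and settings, duplicate removal and read shifting were not given in the sources used here. In each deposited list a peak has a position and a ratio, read from its values as fold enrichment over the background of the same library. Depth is unknown. Peaks on chromosomes 1 to 22 were joined where they overlapped or touched. The rule, the members and the alternatives were chosen with earlier results of these data known. Named regions were ranked by mean percentile of fold: 5 per class, and 3 in each of the subsets that changed state with NT. The bins, stretches, gene lists and motifs had been planned. Gene lists and motifs were not analysed, for lack of an hg19 annotation here. Classes were tested on simulated lists. The merging was checked with bedtools 2.31.1. Scripts ran in Python 3.11.15, with scipy 1.17.1 for the intervals, pandas 2.3.3 and numpy 2.4.6 for the tables, and matplotlib 3.10.9. The bands by rank, the common length of 40506 peaks for NT (counts, line pairs, chromosomes, distances and shares that met the rule again), the regions that met the rule with both hairpins and the ranks at shared regions were chosen after the data were seen.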

Additional observations from a re-analysis of the deposited data

How the results depend on the processing

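With lists of equal length the fusion-open count was 3724, the RCH-open count 4320 and the RCH-open share of both classes 53.7%. With only peaks at or above the pooled median fold of 6.36, a limit set across lists that are not normalized, 393 regions were RCH-open and the share was 5.33%, while the fusion-open count of 6975 stayed within 1.5 times that of the lists as deposited. With 1 list left out, RCH-open counts were 2659 to 6272 and shares 20.7% to 37.99%. They were highest without a list of RCH sh2, where the rule asks for 1 open RCH list instead of 2. Coverage of 50% of a region, joining across 1 kb and adding chromosome X left both counts within 1.5 times and the share within its interval. In the NT lists, the fusion-open count was 2121 at 40506 peaks. The share of fusion-open regions that met the rule with NT was 24.1% with equal lists and 23.2% with coverage of 50%, and that of RCH-open regions 30.5% and 45.1%. With equal lists the rank correlation over chromosomes was 0.614 and the median distance of fusion-open regions 46.1 kb. The RCH-open share of each of the 22 chromosomes rose beyond its interval with equal lists. The NT and sh2 samples pair by line, but each line has 1 sample per hairpin. The labels give no replicate numbers for the lists, and no paired test was run. Depth is unknown, so a region without a peak may be open below the limit of its list.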

Other observations

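Regions open in all 6 sh2 lists also differed in rank between the lines. With lists of 40506 peaks, 18978 regions had a peak in every list. At 2724 of them (14.4%) the percentile was higher in all 4 lists of RS4;11 and SEM than in both RCH lists, with medians of 84.2 and 55.0. At 5575 (29.4%) it was higher in both RCH lists, with medians of 61.7 in the fusion lines and 82.8 in RCH. In the NT lists, the same order without overlap was found at 566 of the 2481 former regions that were open in all 12 lists (22.8%) and the opposite order at 110 (4.43%). Over all 16497 regions open in all 12 lists, 8.13% had the former order with NT. Of the 4904 latter regions open in all 12 lists, 1268 (25.9%) had that order with NT and 2.12% had the opposite one, against 15.9% over all.

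The chromosomes differed in this as well. On chromosome 19, 459 regions ranked higher in both RCH lists and 15 in all 4 fusion-line lists. On chromosome 17 the numbers were 349 and 30, on chromosome 4 they were 216 and 222, and on chromosome 18 they were 80 and 95. The median difference in percentile, fusion lines minus RCH, was -14.5 on chromosome 19, -12.1 on chromosome 17 and 0.059 on chromosome 4. Ranks within a list sum to the same total, so a higher rank on one chromosome goes with a lower rank on others.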
